A study of Homo sapiens with 2 samples.

Results

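The glycosyltransferases described here are the enzymes that build mucin-type O-glycans, the branches and caps of N-glycans, and the sugar chains of glycosphingolipids. They were taken by gene symbol, from the name families GALNT, FUT1 to FUT9, ST3GAL, ST6GAL, ST8SIA, B3GNT, B3GALT, B4GALT, GCNT and MGAT, together with A4GALT, C1GALT1, C1GALT1C1, UGCG, GBGT1 and POFUT1. This gave 91 of the 19775 genes on the array, with 212 probe sets. Of these 91 symbols, 86 were placed in a role in glycan synthesis, the pseudogene MGAT4EP among them, and the other 5 were antisense transcripts, a divergent transcript or a pseudogene (B3GALT5-AS1, GALNT7-DT, GCNT1P1, ST3GAL3-AS1 and ST8SIA6-AS1). RNA came from H322c, an established NSCLC cell line, plated 24 hrs before addition of the drug or vehicle and cultured 4 days with 1 µM gefitinib, an EGFR tyrosine kinase inhibitor, or with 0.1% DMSO as the control. Both cultures grew in RPMI medium with 10% FBS. Each condition was probed on 1 Affymetrix U133 Plus 2.0 array. There are no replicates, so no test was possible and every difference describes these 2 arrays only.

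Glycans are assembled in the Golgi, and partly in the endoplasmic reticulum, by enzymes that each add a single sugar from an activated donor to the product of the enzyme before. Mucin-type chains start when a polypeptide GalNAc-transferase links GalNAc to serine or threonine. C1GALT1 then makes core 1, GCNT enzymes branch it into core 2, B3GNT and B4GALT enzymes lengthen the branches, and sialic acid or fucose ends the chain. In glycolipids the same logic starts from ceramide, through glucosylceramide and lactosylceramide, to the ganglio, globo and lacto chains. Airway epithelium carries such chains on its mucins and cell surface receptors, and EGFR itself is a heavily N-glycosylated protein.

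The deposited values were MAS5 signals on a linear scale, and signals under 100 were set to 100 on both arrays. A gene counts as measured if any of its probe sets, groups of short oligonucleotides for a transcript, reached 100 on at least 1 array. It takes the value of its brightest probe set by mean log2 signal, and calls were made from 2-fold upwards. If the smaller signal lay below 100, the fold is only a lower bound and is given as at least N-fold. Signals of different probe sets depend on the probes as well as on the transcript, so levels are compared between arrays and not between genes. All 7 epithelial markers examined (EPCAM, CDH1, ELF3, KRT7, KRT8, KRT18 and KRT19) were measured and within 2-fold. Their summed signal was 144219 with DMSO and 121054 with gefitinib. None of 5 leukocyte markers reached 100 (summed 117.2 and 140.8). Of 6 fibroblast markers only COL1A1 was measured, at 420.8 and 950.2, and of 5 endothelial markers VWF (30.0 and 496.0) and PECAM1 (128.4 and 78.0) were. The spiked-in bacterial transcripts had a mean log2 ratio of 0.19 (SD 0.16 between 18 probe sets), and the ratio of 3' to 5' signal of ACTB was 1.19 with DMSO and 1.36 with gefitinib. The part of the markers and of the ACTB ratio in the values below was not tested. A scaling to the spike-ins is given further below.

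Of the 91 genes, 56 were measured and 35 were under the floor on both arrays. On the gefitinib array 6 of the 56 (10.7%) were at least 2-fold higher, against 13.3% of the 11223 genes measured, and 2 (3.57%) were at least 2-fold lower, against 6.20%. The remaining 48 (85.7%) were not called, as were 80.5% of all measured genes, and for 7 of the 48 the fold is only a bound. The higher genes were A4GALT, ST6GALNAC2, MGAT4A, ST3GAL1, MGAT4B and GALNT18, and the lower genes were GCNT3 and B3GNT2. The shares of the family past 2-fold were therefore not above those of the array as a whole. Its median log2 ratio was 0.13, beside 0.12 over all measured genes, and the middle of its values ran from -0.15 to 0.70 (25th to 75th percentile), beside -0.33 to 0.62. All 8 genes past 2-fold had both signals at or above the floor. Of the 49 members measured on both arrays these are 12.2% higher and 4.08% lower, beside 12.2% and 6.24% of the 10190 such genes. In the other 7 measured members the probe set used reached the floor on a single array, 6 with gefitinib and 1 with DMSO. Such a probe set was measured only through the array on which it was higher, and its fold may be 2 or more. In a culture, fewer cells that express a gene and less RNA per cell cannot be told apart.

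**Figure D1:**
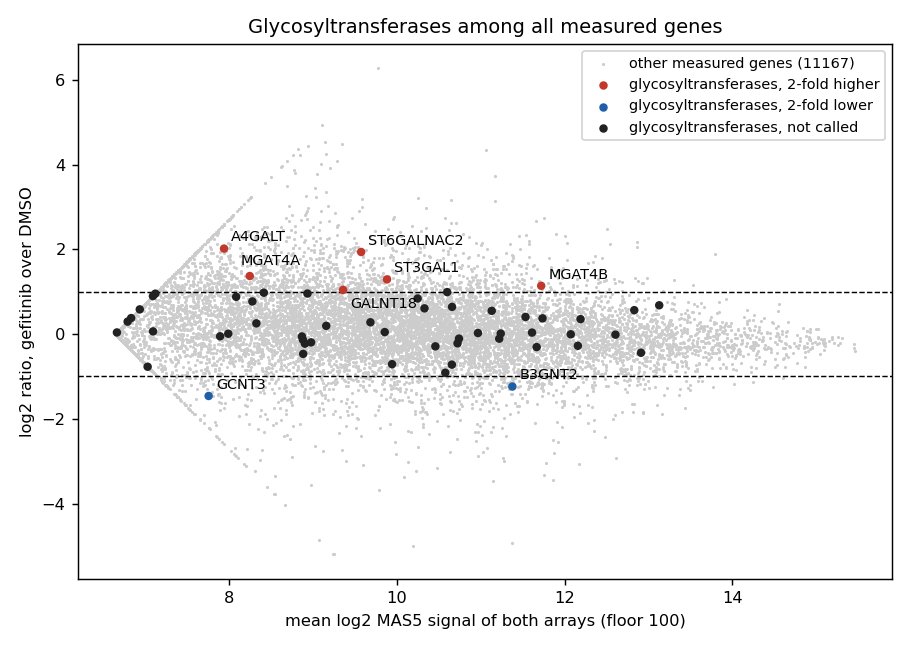
The vertical axis gives the log2 ratio, gefitinib over DMSO, and the horizontal axis the mean log2 MAS5 signal over the pair of arrays, with a floor of 100 and 1 array per condition. Each point is a gene; the 56 measured glycosyltransferases are the large points, with 6 red points above and 2 blue points below the dashed lines at 2-fold, and the slanted edges on the left hold genes with 1 signal under the floor.

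**Figure D2:**
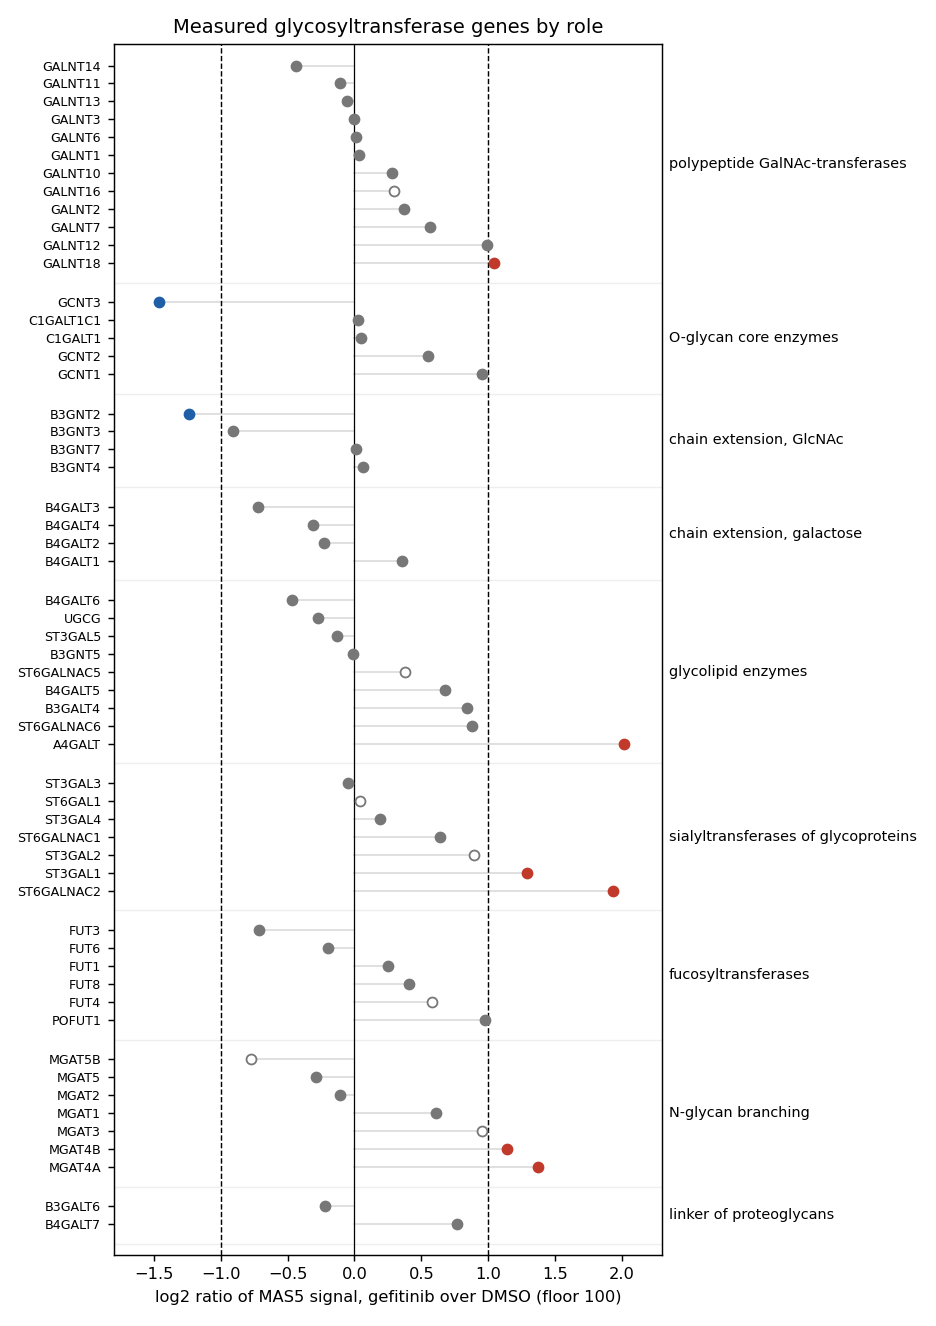
The horizontal axis gives the log2 ratio, gefitinib over DMSO, for each measured glycosyltransferase, grouped by role, from 1 array per condition. Open points are bounds with 1 signal under the floor; red and blue points are past 2-fold (dashed lines), grey ones were not called, and the values run from -1.46 for GCNT3 to 2.02 for A4GALT.

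Promoter sequences in RefSeq (GRCh38.p14) were held for 4 of the 8 genes past 2-fold. These members are shown because they passed 2-fold and a promoter was held, so that their upstream letters can be set side by side. For each the 200 bases before its most upstream start in that table are given 5′ to 3′ on the strand of the gene, with the letters GGGCGG (the core of the GC box that SP1 family factors bind) or its reverse complement in capitals.
A4GALT (chr22:42721302-42721501, minus strand): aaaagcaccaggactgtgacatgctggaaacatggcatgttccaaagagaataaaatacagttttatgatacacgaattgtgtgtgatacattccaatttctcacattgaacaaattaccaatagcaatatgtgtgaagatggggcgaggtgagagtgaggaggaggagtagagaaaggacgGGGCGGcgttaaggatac
MGAT4B (chr5:179806867-179807066, minus strand): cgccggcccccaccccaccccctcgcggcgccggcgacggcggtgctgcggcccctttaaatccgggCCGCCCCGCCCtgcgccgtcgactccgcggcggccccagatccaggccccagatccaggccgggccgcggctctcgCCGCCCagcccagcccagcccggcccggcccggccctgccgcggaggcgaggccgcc
B3GNT2 (chr2:62195915-62196114, plus strand): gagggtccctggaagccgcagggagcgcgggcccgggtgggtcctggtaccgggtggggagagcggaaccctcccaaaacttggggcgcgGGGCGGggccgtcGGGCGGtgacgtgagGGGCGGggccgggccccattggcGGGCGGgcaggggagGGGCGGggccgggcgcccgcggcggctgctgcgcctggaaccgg
GCNT3 (chr15:59611583-59611782, plus strand): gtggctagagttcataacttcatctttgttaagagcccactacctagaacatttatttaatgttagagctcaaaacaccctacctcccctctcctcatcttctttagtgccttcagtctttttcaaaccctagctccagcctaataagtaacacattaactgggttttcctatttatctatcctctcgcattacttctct
Overlapping matches counted separately, the letters occur 1 time in the A4GALT window, 3 times in that of MGAT4B, 5 times in that of B3GNT2 and 0 times in that of GCNT3. A4GALT, MGAT4B and B3GNT2 have another start each in the table, with 7, 0 and 0 matches in its window. In the 250 bases before a start, GGGCGG on either strand was found in 42.6% of 35116 promoters and in 62.8% of the 78 promoters of 45 measured members. The AP-1 letters TGANTCA were found in 6.57% of all promoters and 3.85% of the members', the ETS letters CCGGAA in 14.5% and 17.9%, and the E-box CACGTG in 6.34% and 3.85%. None of these last 3 was found before any start of the 4 genes. Higher and lower genes both held the GC letters. The member promoters were those of measured genes only, while the 35116 promoters were not limited to measured genes. These shares are therefore not of like sets, and whether the family differs from other measured genes was not tested. A gene can have several promoters in either count. A match is a description of the letters in this window and shows no binding. No promoter was held for ST6GALNAC2, MGAT4A, ST3GAL1 and GALNT18.

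Of the enzymes that start mucin-type chains only GALNT18 was called, as higher. Of 17 GALNT genes on the array 12 were measured, with a median log2 ratio of 0.16. Of these 12, 1 was called higher and none lower, beside 13.3% and 6.20% of all measured genes. GALNT18 read 457.3 on the DMSO array and 942.5 on the gefitinib array, 2.06-fold higher, at its only measured probe set. Next was GALNT12, a transferase that prefers substrates already carrying GalNAc, at 1100.7 with DMSO and 2186.7 with gefitinib. This is 1.99-fold, just short of the threshold, and its other probe set, 222773_s_at, went from 500.8 to 892.4. GALNT7, which also acts on partly glycosylated substrates, went from 5985.3 to 8849.4 (1.48-fold higher) at 218313_s_at. At 222587_s_at it went from 1371.2 to 2757.8, a log2 ratio of 1.01, so that GALNT7 passed 2-fold at 1 of its 2 measured probe sets and not at the one that stands for the gene. The broadly expressed initiator GALNT1 stayed between 0.0082 and 0.24 in log2 ratio over 4 measured probe sets. GALNT3 had 4314.9 with DMSO and 4298.3 with gefitinib, and GALNT6 had 2404.4 and 2425.5. These 3 enzymes were near equal on both arrays. GALNT14 was the lowest of the group, at 8963.6 with DMSO and 6602.4 with gefitinib (1.36-fold lower). GALNT2, GALNT10, GALNT11 and GALNT13 were within 2-fold, and GALNT16 was at least 1.23-fold higher, from a DMSO signal of 49.8 to a gefitinib signal of 122.6. GALNT5, GALNT8, GALNT9, GALNT15 and GALNT17 were under the floor on both arrays.

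The step after initiation was near equal on both arrays. C1GALT1, the core 1 synthase, had 911.2 with DMSO and 941.3 with gefitinib, and log2 ratios between -0.13 and 0.17 over its 3 probe sets. Its chaperone in the endoplasmic reticulum, C1GALT1C1 (COSMC), had 1983.5 and 2017.8. The branching enzymes went in different directions. GCNT3, the core 2 and core 4 enzyme typical of mucus-secreting epithelium, had 358.7 with DMSO and 130.3 with gefitinib, 2.75-fold lower. Its gefitinib signal lies near the floor, and with a floor of 200 the log2 ratio becomes a bound of -0.84. GCNT1, the other main core 2 enzyme, had 351.2 with DMSO and 681.7 with gefitinib (1.94-fold higher) at 239761_at, and 344.1 and 465.2 at 205505_at. GCNT2, which makes the I branch of poly-N-acetyllactosamine, was 1.46-fold higher. Thus of the 5 measured genes of this group, the chaperone included, 1 was at least 2-fold lower and none higher, beside 6.20% and 13.3% of all measured genes. B3GNT6, the core 3 synthase, was under the floor on both arrays, as were GCNT4 and GCNT7.

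Of 4 measured enzymes that extend chains with GlcNAc, 1 was at least 2-fold lower and none was higher, beside 6.20% and 13.3% of all measured genes. B3GNT2, the main poly-N-acetyllactosamine synthase, had 4083.8 with DMSO and 1730.6 with gefitinib at 222870_s_at (2.36-fold lower), and 1680.9 and 937.9 at 219326_s_at. B3GNT3, which extends core 1, had 2095.9 with DMSO and 1113.4 with gefitinib, 1.88-fold lower and within the threshold. B3GNT4 and B3GNT7 differed little, at 1.04-fold and 1.01-fold, although a second B3GNT7 probe set (1555963_x_at) went from 193.6 to 292.6. B3GNT8 and B3GNT9 were under the floor. The galactosyltransferases that add the next sugar were all within 2-fold. B4GALT1, the general N-acetyllactosamine synthase, was 1.28-fold higher. B4GALT3 had 2070.9 with DMSO and 1255.8 with gefitinib (1.65-fold lower), B4GALT4 was 1.24-fold lower and B4GALT2 1.17-fold lower. B3GALT1, B3GALT2 and B3GALT5, the last of which makes type 1 chains, were under the floor.

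Of the sialyltransferases that cap core 1, ST6GALNAC2 and ST3GAL1 were past 2-fold, both higher on the gefitinib array. ST6GALNAC2, which adds sialic acid to the GalNAc of core 1, had 389.4 with DMSO and 1491.6 with gefitinib, 3.83-fold higher, at its 1 probe set that was measured. It ranked 291 of 11223 genes from the highest log2 ratio. ST3GAL1, which adds sialic acid to the galactose of core 1 and so competes with core 2 branching, was past 2-fold at each of 3 measured probe sets. The values at 225033_at were 603.3 with DMSO and 1475.7 with gefitinib (2.45-fold higher), those at 208322_s_at were 440.6 and 913.5, and those at 225034_at were 93.0 and 247.6, at least 2.48-fold higher. ST6GALNAC1, the sialyl-Tn synthase, had 1292.9 and 2017.6, 1.56-fold higher and within the threshold. ST3GAL2, a core 1 and ganglioside sialyltransferase, was at least 1.86-fold higher at 229336_at and 1.06-fold higher at 217650_x_at. The enzymes of N-acetyllactosamine ends differed less. ST3GAL4 was 1.14-fold higher, and ST3GAL3 had log2 ratios of -0.05, 0.45 and at most -0.80 at 3 probe sets. ST6GAL1, which makes the α2,6 link on N-glycans, was close to the floor on both arrays (89.0 with DMSO and 102.7 with gefitinib). Of the 7 measured genes of this group 2 were at least 2-fold higher and none was lower, beside 13.3% and 6.20% of all measured genes. Their median log2 ratio was 0.64 beside 0.12 over all genes. ST3GAL6, ST6GAL2, ST6GALNAC4, ST8SIA2 and ST8SIA4 were under the floor, the last pair being the polysialic acid synthases.

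No fucosyltransferase was called at a floor of 100, though FUT4 has only a bound. POFUT1, which places O-linked fucose on EGF-like repeats such as those of Notch receptors, had 243.2 with DMSO and 478.4 with gefitinib (1.97-fold higher). FUT4, a Lewis x enzyme, was at least 1.5-fold higher, from a DMSO signal of 34.1 to a gefitinib signal of 149.8. With a floor of 50 its log2 ratio was 1.58, past 2-fold. FUT8, which adds the core fucose of N-glycans, had 2575.6 and 3408.6 (1.32-fold higher) at 203988_s_at and 1540.7 and 1541.2 at 1554930_a_at. FUT1, the H antigen synthase, was 1.19-fold higher. The Lewis enzyme FUT3 had 1259.0 with DMSO and 769.1 with gefitinib at 214088_s_at (1.64-fold lower), while 216010_x_at went from 197.3 to 229.7. FUT6 had log2 ratios from -0.31 to 0.46 over 5 probe sets. All 5 of these end in _x_at, a suffix for probes that may bind other transcripts, and FUT3, FUT5 and FUT6 are close paralogs, so values for these genes are uncertain. FUT2, FUT5, FUT7 and FUT9 were under the floor.

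Of the N-glycan branching enzymes, both isozymes of the MGAT4 step were higher. MGAT4A and MGAT4B add the same β1,4-linked GlcNAc branch. MGAT4A had 188.9 with DMSO and 488.3 with gefitinib at 226039_at (2.58-fold higher) and 92.9 and 151.4 at 219797_at, at least 1.51-fold higher. MGAT4B had 2273.4 with DMSO and 5005.2 with gefitinib at 224598_at (2.20-fold higher) and 1328.2 and 4560.9 at 220189_s_at, a log2 ratio of 1.78. All 4 measured probe sets of the pair were thus higher with gefitinib. MGAT1, which opens the route to hybrid and complex N-glycans, was 1.52-fold higher, and MGAT3, which adds the bisecting GlcNAc, was at least 1.94-fold higher (86.9 with DMSO and 193.7 with gefitinib). MGAT2 had 2477.2 and 2296.2, and MGAT5, which makes the β1,6 branch, had 1555.7 and 1273.1 (1.22-fold lower). MGAT5B was at least 1.71-fold lower (170.6 with DMSO and 71.7 with gefitinib) at 238445_x_at, its only measured probe set. The _x_at suffix again marks probes that may bind other transcripts. MGAT4C, MGAT4D and the pseudogene MGAT4EP were under the floor. The 7 measured genes had a median log2 ratio of 0.61, with 2 called higher and none lower, beside the same 13.3% and 6.20%.

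In the glycolipid branch the early, shared steps were within 2-fold and the globo enzyme was higher. UGCG, which makes glucosylceramide, had 5026.9 with DMSO and 4149.7 with gefitinib (1.21-fold lower) and log2 ratios of -0.24 and 0.05 at its other probe sets. The lactosylceramide synthases differed in direction. B4GALT5 had 7067.2 with DMSO and 11318.0 with gefitinib (1.60-fold higher) at 221484_at and a log2 ratio of 0.92 at 221485_at, while B4GALT6 was 1.38-fold lower. From lactosylceramide, A4GALT leads to globotriaosylceramide (Gb3), the receptor of Shiga toxin. A4GALT had 122.0 with DMSO and 494.1 with gefitinib, 4.05-fold higher, at its only probe set, and ranked 246 of 11223. Its DMSO signal lies near the floor, and with a floor of 200 the log2 ratio becomes a bound of 1.30. The competing first steps were near equal on both arrays. ST3GAL5, the GM3 synthase, had 493.6 and 449.8, and B3GNT5, which opens the lacto chain, had 6259.9 and 6199.5 at 225612_s_at, though its dimmer probe sets 1556134_a_at and 1554835_a_at had log2 ratios of -0.63 and -0.68. Of the enzymes of later ganglioside steps, ST6GALNAC6 was 1.84-fold higher and B3GALT4 1.79-fold higher, within the threshold. ST6GALNAC5 was at least 1.30-fold higher. GBGT1, ST6GALNAC3, ST8SIA1 (the GD3 synthase), ST8SIA3 and ST8SIA5 were under the floor. Of the 9 measured genes 1 was called higher and none lower, beside 13.3% and 6.20% of all genes. Their median log2 ratio of 0.38 is the bound of ST6GALNAC5, whose DMSO signal was 20.9 and gefitinib signal 129.9, and depends on the floor.

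B4GALT7 and B3GALT6, which the name rule brings in, make the linker that joins glycosaminoglycan chains to proteoglycans. B4GALT7 was 1.70-fold higher (237.6 with DMSO and 405.1 with gefitinib) and its other probe set gave a log2 ratio of 0.78. B3GALT6 had probe sets that disagreed. At 1553959_a_at it had 1822.4 with DMSO and 1567.2 with gefitinib, and at 225733_at it had 125.0 and 396.4, a log2 ratio of 1.67. The direction of B3GALT6 therefore depends on the probe set taken.

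**Figure D3:**
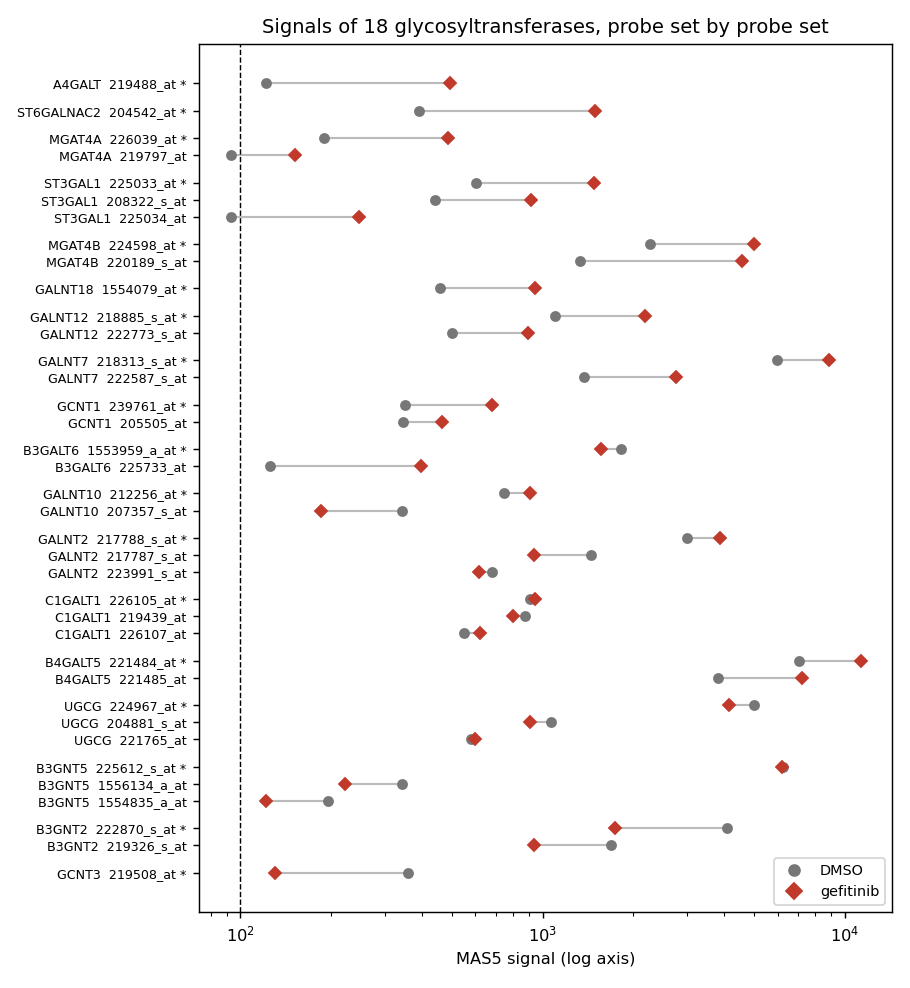
MAS5 signal (horizontal log axis) on the DMSO array (grey circles) and the gefitinib array (red diamonds) for every measured probe set of 18 glycosyltransferases, 1 array per condition. An asterisk marks the probe set that stands for the gene and the dashed line is the floor of 100; the pairs of ST3GAL1, MGAT4A, MGAT4B and B3GNT2 each run in 1 direction, and those of B3GALT6, GALNT2 and GALNT10 do not.

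Agreement between probe sets of a gene is a measure of spread within these arrays, and carries no information on how cultures vary. For the 28 members with several measured probe sets the log2 ratios of probe sets within a gene had a pooled SD of 0.40, beside 0.58 over the 5432 such genes of the array. In 18 of the 28 all probe sets had the same sign and in 10 they did not. GALNT10 had log2 ratios of 0.28 and -0.89 and GALNT2 ran from -0.63 to 0.37. Of the 8 genes past 2-fold, 4 (MGAT4A, MGAT4B, ST3GAL1 and B3GNT2) had several measured probe sets, each with all of them on the same side. The other 4 (A4GALT, ST6GALNAC2, GALNT18 and GCNT3) rest on a single one. Counted by probe set, 11 of 97 measured (11.3%) were at least 2-fold higher, beside 12.1% of all measured probe sets, and 2 (2.06%) were lower, beside 7.26%.

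Most of the genes that supply these enzymes were not called either. Of 21 measured genes of nucleotide sugar synthesis 1 was at least 2-fold higher (UAP1L1, at least 2.52-fold) and 1 was lower (PGM2, 2.03-fold), with a median log2 ratio of 0.07. Over all measured genes the shares were 13.3% higher and 6.20% lower. With a floor of 200 the bound of UAP1L1 was a log2 ratio of 0.33. FCSK, the fucose kinase of the salvage route, was 1.98-fold higher. Of 9 measured Golgi nucleotide sugar transporters 1 was at least 2-fold higher and none lower, beside 13.3% and 6.20% of all measured genes. The higher one was SLC35A1, the CMP-sialic acid transporter that serves every sialyltransferase, at 2225.4 with DMSO and 4564.4 with gefitinib, 2.05-fold higher. Of 13 measured genes that make, carry or use ceramide, the lipid that UGCG glycosylates, 5 were at least 2-fold higher and none lower, with a median log2 ratio of 0.68. They were CERS4 (4.06-fold), SPTSSA (2.87-fold), SGMS1 (2.08-fold), CERS6 (2.03-fold) and DEGS2. The background is the same 13.3% higher and 6.20% lower. The number of these genes called higher was 2 with quantile normalization, lowess correction or scaling to the spike-ins. Averaged over its probe sets, CERS6 had a log2 ratio of 0.31. CERS4 and CERS6 are ceramide synthases, SPTSSA is a small subunit of serine palmitoyltransferase, and SGMS1 turns ceramide into sphingomyelin.

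Of the glycan hydrolases 3 of 12 measured were at least 2-fold higher and none was lower, beside 13.3% and 6.20% of all genes, and 1 was higher with the spike-in scaling. MANBA, the lysosomal beta-mannosidase, had 551.6 with DMSO and 2067.4 with gefitinib (3.75-fold higher), GALC, which cleaves galactosylceramide, was 2.26-fold higher, and MAN2B1 was 2.14-fold higher. Averaged over its probe sets, GALC had a log2 ratio of 0.34. Among 8 measured transferases and sulfotransferases of the same chains outside the name families, CHST6, a sulfotransferase of keratan sulfate, had 864.4 with DMSO and 130.3 with gefitinib, 6.63-fold lower. The gefitinib signal of CHST6 lies near the floor, and with a floor of 200 its log2 ratio becomes a bound of -2.11. B4GALNT3, which caps chains with GalNAc, was at least 2.09-fold higher, but with a floor of 200 its bound was a log2 ratio of 0.06. Among these 8 transferases 1 was thus called higher and 1 lower, beside 13.3% and 6.20% of all measured genes. Of 19 genes of Golgi structure and traffic, listed as a reference for the compartment, 1 was past 2-fold (COG6, 2.29-fold higher) and the median was 0.35. Of the mucin core proteins that carry these glycans, 16 genes were on the array, 5 were measured and the rest were under the floor. Of the 5, 3 were at least 2-fold higher and none lower, beside 13.3% and 6.20% of all measured genes. The higher mucins were MUC15 (18.8-fold), MUC16 (11.2-fold) and MUC20 (4.59-fold). MUC15 and MUC16 had DMSO signals near the floor (106.2 and 123.7), and with a floor of 200 their log2 ratios became bounds of 3.32 and 2.79. MUC1 was 1.44-fold higher, and had a log2 ratio of 1.15 at its probe set of highest signal on either array. Under at least 1 of the scalings described next, PGM2, SLC35A1, SGMS1, CERS6, DEGS2, GALC, MAN2B1 and B4GALNT3 lay within 2-fold.

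How many members passed 2-fold depended on how the arrays were scaled to each other. With the signals as deposited 6 of the 8 were higher. Scaling to the bacterial spike-ins gave 4 higher and 3 lower, with B3GNT3 (log2 ratio -1.10) added to the lower genes. This scaling moved the median log2 ratio of all genes by -0.18. Centring on the normalization-control probe sets moved it by 0.13 and gave 12 and 2, and scaling to GAPDH moved it by 0.21 and gave 13 and 2. The background moved as well, to 9.42% higher with the spike-ins, 17% with the control probe sets and 19.2% with GAPDH. Of all genes past 2-fold the share that was higher was 68.2% as deposited, 50.5% with the spike-ins, 78.3% with the control probe sets and 83.1% with GAPDH. A4GALT, ST6GALNAC2, MGAT4A, ST3GAL1, B3GNT2 and GCNT3 stayed past 2-fold in the same direction under all 6 scalings. MGAT4B had a log2 ratio of 0.95 with the spike-ins. GALNT18 had 0.85 with the spike-ins and was also within 2-fold after lowess correction or quantile normalization. The genes that gained a call with the control probe sets were GALNT12, GCNT1, MGAT3, POFUT1, ST3GAL2 and ST6GALNAC6, all between 1.8-fold and 2-fold higher as deposited, and B3GALT4 joined them with GAPDH.

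**Figure D4:**
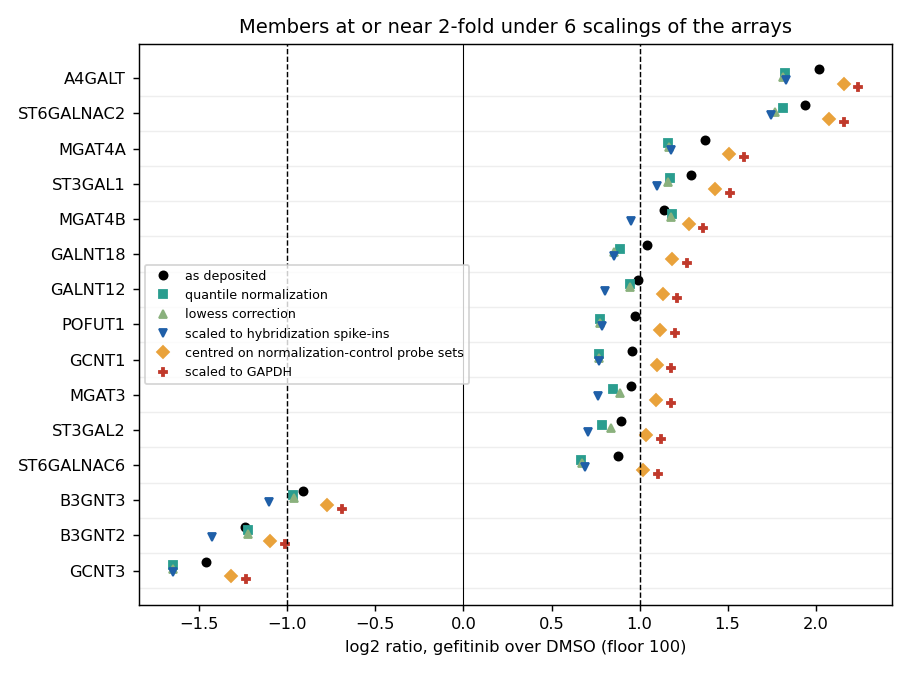
The horizontal axis gives the log2 ratio, gefitinib over DMSO, under 6 scalings of the arrays for the 15 members at least 1.8-fold apart as deposited, 1 array per condition. Dashed lines mark 2-fold; A4GALT and ST6GALNAC2 lie well to the right of the line under each scaling, and the genes from MGAT4B down to ST6GALNAC6 have points on both sides of it.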

How the data were processed

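RNA of H322c cells cultured 4 days with 1 µM gefitinib or 0.1% DMSO was hybridized to Affymetrix U133 Plus 2.0 arrays, 1 per condition, and samples were assigned to conditions from their labels. The authors deposited signal intensities on a linear scale. The submitters' processing notes name MAS5, with no version given in the sources used here. The 2% trimmed mean was 500.1 on each array, a scaling that would remove a shift of most transcripts in 1 direction. The platform annotation paired 41097 of 54675 probe sets with 1 gene, and 41043 of these matched a gene identifier of GRCh38.p14, which updated the symbols. Probe sets with several genes were left out. After a floor of 100, log2 ratios were formed as gefitinib over DMSO. No p-value could be had from 1 array per condition, which also limits the precision. The members, roles and lists were chosen with earlier results of these data known. The text names each member past 2-fold, the 4 of each role with the largest log2 ratio and the 3 with the highest DMSO signal, members whose probe sets disagree about 2-fold, and up to 4 genes of each list outside the family. DEGS2 and members listed within 2-fold or under the floor are named besides. Motif letters were searched in RefSeq promoters on both strands. The alternatives were other scalings (quantile, control probe sets, GAPDH, spike-ins, lowess with span 0.3), floors of 50 and 200, log2 of signal plus 50, other choices of probe set, fold thresholds of 1.5 and 3, and symbols as annotated. The code was first tested on simulated data. Python 3.11.15, numpy 2.4.6, pandas 2.3.3, statsmodels 0.14.6 and matplotlib 3.10.9 were used.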

Additional observations from a re-analysis of the deposited data

Results flagged for a closer look

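A probe set left out of the counts, 231832_at, is annotated to both GALNT4, a polypeptide GalNAc-transferase that acts on partly glycosylated substrates, and the read-through transcript POC1B-GALNT4. It is given because its signal, outside the counts above, was 2.91-fold higher with gefitinib (125.0 on the DMSO array and 363.6 on the gefitinib array). The other probe set of this pair, 220442_at, was under the floor on both arrays (29.4 and 23.4). Each of these probe sets is annotated to both transcripts, so the signal could not be assigned to either transcript.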

How the results depend on the processing

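With signals as deposited, 6 members were at least 2-fold higher, 2 lower, and the median log2 ratio was 0.13. The number higher was 12 after centring on control probe sets, 13 when scaled to GAPDH, 11 with a floor of 50, 17 at a threshold of 1.5-fold and 2 at 3-fold. The number lower was 1 with a floor of 200, 6 at 1.5-fold and 0 at 3-fold. The median was 0.27 when centred on control probe sets, 0.35 with GAPDH, 0.0048 with spike-ins, 0.041 with a floor of 200, 0.25 with the probe set of highest signal on either array and 0.22 without _x_at probe sets. Quantile normalization and lowess correction gave 5 higher and 2 lower, and symbols as annotated gave the values as reported. A floor of 50 added FUT4, GALNT16, MGAT3, ST3GAL2 and ST6GALNAC5 to the higher genes and MGAT5B to the lower. The mean over probe sets took MGAT4A to 0.98. No member past 2-fold changed sign under any alternative run. No paired analysis was possible because there is 1 array per condition, and for the same reason no replicate could be left out. A signal under the floor carries no order.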
